A study of Homo sapiens with 9 samples.

Results

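The 9 genes described here encode brakes on mTORC1, the kinase complex that drives protein synthesis and growth when amino acids and growth factors are plentiful. They were chosen by gene name from the 78894 genes of the expression tables, with earlier results of these data known. All 9 passed the filter on low counts that left 16908 genes for testing. Their levels were followed in 9 libraries of Hap1 cells, a near-haploid human line that grows attached and comes from a chronic myeloid leukaemia. Each of the 3 groups had 3 libraries. In all of them the endogenous SARS2 gene, which encodes mitochondrial seryl-tRNA synthetase, carried a deletion, a doxycycline-inducible SARS2-1xFLAG copy was kept off for 6 days, and a constitutive SARS2+int14-myc copy was present. That last copy was R227Q in the first group, H448L in the second and wild type (WT) in the third. The sources used here do not give the promoter of the constitutive copy or say whether each line was 1 clone. Whether the 3 libraries of a group were separate cultures is not in the labels, so the p-values below cover only how these libraries vary, which may be technical variation.

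mTORC1 is switched on at the lysosome by the GTPase Rheb and by the Rag GTPases. The TSC complex, built from TSC1 and TSC2, turns Rheb off, and DDIT4 (also called REDD1) acts through TSC2. GATOR1, made of DEPDC5, NPRL2 and NPRL3, turns the Rag pathway off when amino acids are short, and the sestrins release GATOR1 by holding its inhibitor, GATOR2. DEPTOR binds mTOR itself. DDIT4 and SESN2 are known targets of ATF4, the transcription factor of the integrated stress response, and DDIT4 is also induced by hypoxia and glucocorticoids.

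Library totals ran from 9900892 to 12991050 counts, so that 1 count stood for 0.0770 to 0.101 CPM (counts per 1000000 of the library total), the unit of level used below. By their column names the libraries came from 2 submissions to a sequencing service. SDKYMR held R227Q 1, WT 1 and WT 2, and 4LJFHN held R227Q 2, R227Q 3, the 3 H448L libraries and WT 3. The submissions differed for 43.8% of tested genes, so every test carried a submission term. H448L was therefore set against WT directly only through WT 3, and against WT 1 and WT 2 only through the R227Q libraries. Of 21 markers of blood, epithelial and fibroblast cells, 5 were at 0 in the 3 SDKYMR libraries and above 0 in all 6 of 4LJFHN. The highest of these, HBG1, a fetal globin named here after its values were seen, stood at 13 to 19.9 CPM there. The others were COL3A1, DCN, FAP and GATA1. Summed haematopoietic markers reached 5.46 to 6.33 CPM in SDKYMR and 17.3 to 24.8 CPM in 4LJFHN, and summed fibroblast markers 18.9 to 23.7 CPM in SDKYMR and 54.8 to 68.3 CPM in 4LJFHN. Summed epithelial markers were 84.8 to 92.5 CPM in R227Q, 79.4 to 89.9 CPM in H448L and 78.1 to 81.7 CPM in WT, so every R227Q library lay above every WT library. Most of that sum was KRT18, with means of 78.3 CPM in R227Q and 71.6 CPM in WT. KRT8 and KRT19 also averaged higher in R227Q than in WT. EPCAM (0.95 against 1.11 CPM), CDH1 (0.03 against 0.05 CPM) and CLDN4 (0.14 against 0.19 CPM) averaged lower there, at very low levels. Within 4LJFHN the haematopoietic sums were 17.3 to 20.7 CPM in R227Q, 20.0 to 24.8 CPM in H448L and 21.0 CPM in WT. The fibroblast sums there were 61.7 to 66.8 CPM in R227Q, 56.0 to 68.3 CPM in H448L and 54.8 CPM in WT, and in SDKYMR 23.7 CPM in R227Q and 18.9 and 20.0 CPM in WT, so both variants lay above WT within each submission that held them. Mitochondrial genes did likewise, with 7.04% of counts in R227Q 1 against 6.51% and 5.99% in WT 1 and WT 2, and in 4LJFHN 5.92% to 6.07% in R227Q and 5.51% to 6.02% in H448L against 5.18% in WT 3. The part of these markers and shares in the results was not tested. SARS2 itself was detected in every library (6.20 to 8.68 CPM), but the tables do not separate its copies.

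DDIT4, SESN2 and TSC2 rose in R227Q cells, by 1.5-fold, 1.26-fold and 1.2-fold. DDIT4 and TSC2 also rose in H448L cells, by 1.28-fold and 1.29-fold, where SESN2 stood 1.15-fold above WT without passing the test. TSC1, SESN3, NPRL2, NPRL3, DEPDC5 and DEPTOR passed in neither comparison. Calls rest on edgeR's two-sided quasi-likelihood test, with p-values adjusted by Benjamini-Hochberg over all tested genes and a threshold of 0.05. Of the 9 genes 3 were higher and 0 lower in R227Q, where 17.4% of all tested genes were called, 7.5% higher and 9.91% lower. Of those R227Q calls 43.1% were higher, against 54% with upper-quartile factors and 32.4% with DESeq2. In H448L 2 were higher and 0 lower, where 7.97% of all tested genes were called, 2.97% higher and 4.99% lower. Without adjustment, at p under 0.05, the 9 genes gave 3 in R227Q and 3 in H448L, against 29.6% and 21.5% of all tested genes. DDIT4 and TSC2 were called in the same direction in both variants, as were 6.62% of all tested genes. The median log2 fold change of the 9 genes was 0.00 in R227Q and 0.06 in H448L, against 0.00 and 0.01 for all tested genes. Both comparisons use the same WT libraries. The 9 genes were chosen with earlier results of these data known, so their counts beside these shares are a description.

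**Figure D1:**
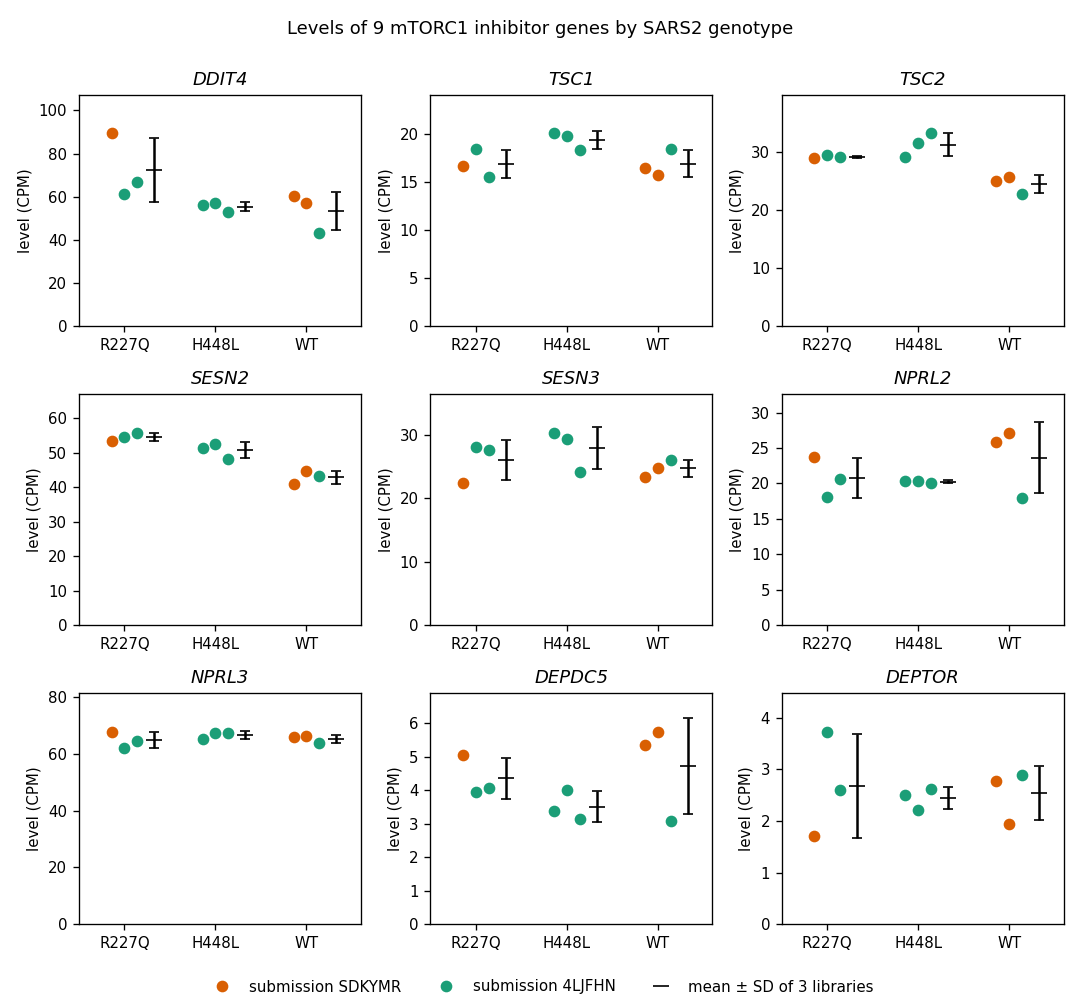
Levels in CPM of the 9 genes in each library (points, coloured by submission to the sequencing service) for R227Q, H448L and WT, with the mean and SD of 3 libraries beside them. SESN2 lies at 53.6 to 55.9 CPM in R227Q, 48.3 to 52.7 CPM in H448L and 41.0 to 44.7 CPM in WT, whereas NPRL2 and DEPDC5 separate by submission.

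DDIT4 (ENSG00000168209, GRCh38 chromosome 10, 72273920 to 72276036, plus strand) encodes a short-lived stress protein that restrains mTORC1 through the TSC complex. Its level was 89.3, 61.4 and 66.8 CPM in R227Q 1 to 3, 56.3, 56.9 and 52.9 CPM in H448L 1 to 3, and 60.1, 56.9 and 43.2 CPM in WT 1 to 3. The 3 R227Q libraries were the highest of all 9, while H448L and WT overlapped when the submissions were mixed. Inside each submission the order was clearer. In SDKYMR the R227Q library (89.3 CPM) lay above both WT libraries. In 4LJFHN both R227Q libraries lay above the H448L libraries, and these lay above WT 3 (43.2 CPM). On average DDIT4 stood at 72.5 ± 14.8 CPM in R227Q, 55.4 ± 2.2 CPM in H448L and 53.4 ± 9.0 CPM in WT (SD, n = 3 each).

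With the submission term, the log2 fold change of DDIT4 was 0.58 ± 0.06 (SE) for R227Q against WT (95% interval 0.47 to 0.70, edgeR adjusted p = 7.92e-09). Mean log2 CPM differed by 0.60 in SDKYMR and 0.56 in 4LJFHN. For H448L against WT the log2 fold change was 0.35 ± 0.07 (0.21 to 0.49, edgeR adjusted p = 0.00106), and the difference inside 4LJFHN was 0.33. DDIT4 itself was 0.51 higher on the log2 scale in SDKYMR than in 4LJFHN (edgeR adjusted p = 6.82e-09). With the submissions pooled, both calls therefore needed the submission term. Without it the R227Q value over all 9 libraries was 0.41 (edgeR adjusted p = 0.236) and the H448L value −0.01 (0.979). A fit to 4LJFHN alone, which needs no such term but holds 1 WT library, gave 0.56 for R227Q and 0.33 for H448L. Each call was kept when any 1 of the 9 libraries was left out. The H448L call passed narrowly without WT 3 (0.37, edgeR adjusted p = 0.0465), where no WT library shared a submission with H448L. The annotated gene overlaps the antisense gene DDIT4-AS1 by 1066 bases, which had 1 to 11 counts per library against 478 to 1096 for DDIT4.

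TSC2 (ENSG00000103197, chromosome 16, 2047465 to 2089487, plus strand) encodes tuberin, the subunit of the TSC complex that stimulates GTP hydrolysis by Rheb. Its level was 29, 29.4 and 29.1 CPM in R227Q 1 to 3, 29.1, 31.5 and 33.2 CPM in H448L 1 to 3, and 24.9, 25.7 and 22.7 CPM in WT 1 to 3. Every library of either variant lay above every WT library. R227Q lay above WT within both submissions, whereas H448L was only in 4LJFHN. The log2 fold change was 0.26 ± 0.07 for R227Q against WT (95% interval 0.11 to 0.41, edgeR adjusted p = 0.0129) and 0.37 ± 0.09 for H448L against WT (0.19 to 0.54, edgeR adjusted p = 0.00642). TSC2 did not differ detectably between submissions (SDKYMR 0.11 higher on the log2 scale, edgeR adjusted p = 0.218). R227Q lay 0.18 above WT on the log2 scale within SDKYMR and 0.35 within 4LJFHN, where H448L lay 0.43 above WT.

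Both TSC2 calls depended on WT 3, the WT library with the lowest level and the only one in 4LJFHN. Leaving it out also cut calls over all genes, from 2944 to 1093 in R227Q and from 1347 to 253 in H448L. Without WT 3 the log2 fold change of TSC2 was 0.18 for R227Q (edgeR adjusted p = 0.332) and 0.26 for H448L (0.368). With all 9 libraries DESeq2 did not call the R227Q difference (0.25, DESeq2 adjusted p = 0.105). Both calls were also lost without the submission term (0.22 and 0.29, edgeR adjusted p = 0.205 and 0.103), and the R227Q call with 4LJFHN alone (0.35, 0.0568). Counts of TSC2 are also uncertain at its ends, where the annotation overlaps NTHL1 by 402 bases and PKD1 by 778 bases on the opposite strand. NTHL1, a DNA glycosylase, stood at 0.11 ± 0.05 in R227Q and 0.11 ± 0.06 in H448L, and PKD1, which encodes polycystin 1, at 0.17 ± 0.09 and 0.17 ± 0.10. Both missed the threshold (edgeR adjusted p from 0.154 to 0.338).

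TSC1 (ENSG00000165699, chromosome 9, 132891348 to 132946874, minus strand) encodes hamartin, which stabilises TSC2. Its level was 16.6, 18.5 and 15.5 CPM in R227Q 1 to 3, 20.0, 19.8 and 18.3 CPM in H448L 1 to 3, and 16.5, 15.8 and 18.5 CPM in WT 1 to 3. R227Q (15.5 to 18.5 CPM) and WT (15.8 to 18.5 CPM) covered nearly the same range, and H448L lay at its upper end or above it. The log2 fold change was −0.05 ± 0.09 for R227Q (95% interval −0.23 to 0.14) and 0.11 ± 0.10 for H448L (−0.11 to 0.32), without passing the test (edgeR adjusted p = 0.778 and 0.619). The partners of the TSC complex therefore had different calls, although a difference between their fold changes was not tested. TSC1 overlaps GFI1B on the opposite strand by 2875 bases, and GFI1B had 1 to 5 counts per library.

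SESN2 (ENSG00000130766, chromosome 1, 28259527 to 28282491, plus strand) encodes sestrin 2, a leucine sensor that binds GATOR2. Its level was 53.6, 54.6 and 55.9 CPM in R227Q 1 to 3, 51.6, 52.7 and 48.3 CPM in H448L 1 to 3, and 41.0, 44.7 and 43.2 CPM in WT 1 to 3. The 3 groups did not overlap, with R227Q highest, H448L next and WT lowest. SESN2 averaged 54.7 ± 1.2 CPM in R227Q, 50.8 ± 2.3 CPM in H448L and 43.0 ± 1.9 CPM in WT (SD, n = 3 each). SESN2 showed little difference between submissions (0.02 on the log2 scale, edgeR adjusted p = 0.813).

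The log2 fold change of SESN2 was 0.33 ± 0.06 for R227Q against WT (95% interval 0.21 to 0.45, edgeR adjusted p = 0.000176). The submissions gave 0.31 (SDKYMR) and 0.34 (4LJFHN). This call held under all 19 alternatives tried, including the fit without the submission term. For H448L against WT it was 0.20 ± 0.07 (0.06 to 0.34, edgeR adjusted p = 0.0705), which passed only when H448L 3 was left out (0.24, edgeR adjusted p = 0.0341). No other annotated gene overlaps SESN2.

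SESN3 (ENSG00000149212, chromosome 11, 95165513 to 95232541, minus strand) encodes sestrin 3, whose gene is known as a target of FOXO factors. Its level was 22.4, 28 and 27.6 CPM in R227Q 1 to 3, 30.4, 29.3 and 24.2 CPM in H448L 1 to 3, and 23.3, 24.8 and 26.0 CPM in WT 1 to 3. The 3 groups overlapped. The log2 fold change was −0.01 ± 0.08 for R227Q (95% interval −0.18 to 0.16) and 0.02 ± 0.10 for H448L (−0.18 to 0.22), with edgeR adjusted p = 0.962 and 0.927. The antisense gene AP000787.1 covers all 67029 bases of SESN3, which leaves the counts of SESN3 uncertain if strand was not used. SESN1, the sestrin known mainly as a p53 target, is not among the 9 genes. It stood at 8.31, 9.5 and 11 CPM in R227Q 1 to 3, 11.7, 9.51 and 12.1 CPM in H448L 1 to 3, and 8.70, 9.63 and 11.7 CPM in WT 1 to 3. Its log2 fold change was −0.17 ± 0.12 for R227Q and −0.08 ± 0.13 for H448L (edgeR adjusted p = 0.350 and 0.780). Of the 3 sestrin genes, SESN2 was thus the one that passed the test in R227Q.

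The sequence just upstream of the start is shown for the genes that rose, because ATF4, hypoxia factors and E-box proteins are known regulators of this pathway. The 250 bases before the first start in RefSeq (GRCh38.p14) are printed 5′ to 3′ on the gene's strand, with capitals marking matches on either strand to the ATF4 composite element TGATGNAA or to the hypoxia response core ACGTG. The windows are chr10:72273674-72273923 for DDIT4, chr1:28259268-28259517 for SESN2 and chr16:2047735-2047984 for TSC2, each on the plus strand. The TSC2 window lies inside the annotated gene given above, which begins at 2047465, so the 2 annotations place its start differently.
DDIT4: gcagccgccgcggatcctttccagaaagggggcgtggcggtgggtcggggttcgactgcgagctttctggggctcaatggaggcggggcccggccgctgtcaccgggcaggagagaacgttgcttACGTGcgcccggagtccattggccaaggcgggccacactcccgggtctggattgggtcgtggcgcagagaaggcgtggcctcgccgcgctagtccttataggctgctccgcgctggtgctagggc
SESN2: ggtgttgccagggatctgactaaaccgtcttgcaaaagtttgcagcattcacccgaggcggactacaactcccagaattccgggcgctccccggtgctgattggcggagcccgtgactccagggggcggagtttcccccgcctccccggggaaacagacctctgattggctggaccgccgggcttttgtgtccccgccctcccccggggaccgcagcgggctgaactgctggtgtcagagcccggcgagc
TSC2: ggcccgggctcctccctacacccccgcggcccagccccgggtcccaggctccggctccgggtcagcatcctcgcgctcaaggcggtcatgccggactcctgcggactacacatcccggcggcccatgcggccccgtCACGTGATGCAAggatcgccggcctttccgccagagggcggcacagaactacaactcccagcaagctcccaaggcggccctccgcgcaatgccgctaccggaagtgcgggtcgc
The DDIT4 window held 1 match to ACGTG, starting 125 bases before the start. The SESN2 window held no match to either. In the TSC2 window the capitals form 1 run, in which an E-box (CACGTG, starting 114 bases before the start and matching ACGTG on both strands) overlaps a match to TGATGNAA that starts at 110 bases. A match to TGACG on the minus strand, starting at 117 bases, also overlaps the E-box.

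Among the 35116 RefSeq promoter windows of the same length, 3.14% held TGATGNAA, 18.5% ACGTG and 6.34% CACGTG. Windows were at hand for 8 of the 9 genes, at 11 starts, and DEPTOR was not searched. TGATGNAA and CACGTG were found for TSC2 alone among the 8 genes, and ACGTG for DDIT4 and TSC2. TGACG, the core of the cyclic AMP response element, was found for TSC1, TSC2 and NPRL2, against 21.2% of all windows, and the FOXO element GTAAACA for none, against 2.98%. The GC box GGGCGG was found for SESN2, TSC1, TSC2, NPRL2 and DEPDC5, against 42.6%. These are letter matches and not sites shown to be bound, and elements outside the windows were not searched.

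No GATOR1 gene passed the test in either variant. NPRL3 (ENSG00000103148, chromosome 16, 84271 to 138860, minus strand) encodes the GATOR1 subunit that pairs with NPRL2. It stood at 67.9, 62.2 and 64.5 CPM in R227Q 1 to 3, 65.2, 67.5 and 67.5 CPM in H448L 1 to 3, and 66.1, 66.4 and 63.9 CPM in WT 1 to 3, and the groups overlapped. Its log2 fold change was 0.00 ± 0.05 for R227Q (95% interval −0.10 to 0.11) and 0.06 ± 0.06 for H448L (−0.07 to 0.18), with edgeR adjusted p = 0.974 and 0.642. The gene overlaps MPG, on the opposite strand, by 1583 bases.

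NPRL2 (ENSG00000114388, chromosome 3, 50347330 to 50351091, minus strand), the GATOR1 subunit that carries the GTPase-activating function, followed the submission. It stood at 23.7, 18.0 and 20.6 CPM in R227Q 1 to 3, 20.3, 20.4 and 20.1 CPM in H448L 1 to 3, and 25.8, 27.2 and 17.9 CPM in WT 1 to 3. The 3 SDKYMR libraries were the highest of the 9, and SDKYMR exceeded 4LJFHN by 0.47 on the log2 scale (edgeR adjusted p = 2.27e-05). With the submission term the log2 fold change was −0.06 ± 0.08 for R227Q (95% interval −0.22 to 0.11) and 0.05 ± 0.10 for H448L (−0.16 to 0.25), with edgeR adjusted p = 0.707 and 0.835. NPRL2 overlaps CYB561D2 on the opposite strand by 397 bases.

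DEPDC5 (ENSG00000100150, chromosome 22, 31753867 to 31908033, plus strand), the subunit that binds the Rag GTPases, was low, with 31 to 74 counts per library. It stood at 5.05, 3.95 and 4.05 CPM in R227Q 1 to 3, 3.38, 4.01 and 3.13 CPM in H448L 1 to 3, and 5.35, 5.75 and 3.08 CPM in WT 1 to 3. Again the SDKYMR libraries were the highest (0.62 on the log2 scale, edgeR adjusted p = 0.00279). The log2 fold change was 0.04 ± 0.16 for R227Q (95% interval −0.29 to 0.37) and −0.05 ± 0.21 for H448L (−0.48 to 0.38), with edgeR adjusted p = 0.908 and 0.929, so a change of the size of that of SESN2 would lie inside both intervals. A same-strand gene, Z82190.2, covers 153135 bases of DEPDC5, which leaves the division of reads between them uncertain.

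DEPTOR (ENSG00000155792, chromosome 8, 119873717 to 120050913, plus strand) binds mTOR and inhibits it in both of its complexes. With 21 to 42 counts per library it was the least covered of the 9 genes. It stood at 1.71, 3.73 and 2.59 CPM in R227Q 1 to 3, 2.49, 2.22 and 2.63 CPM in H448L 1 to 3, and 2.77, 1.94 and 2.89 CPM in WT 1 to 3. The R227Q libraries spanned the whole range of the other groups. The log2 fold change was −0.14 ± 0.22 for R227Q (95% interval −0.59 to 0.32) and −0.43 ± 0.26 for H448L (−0.96 to 0.10), with edgeR adjusted p = 0.741 and 0.355. No difference was detectable at this depth. DEPTOR overlaps the non-coding gene AP005717.1 on the opposite strand by 772 bases.

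**Figure D2:**
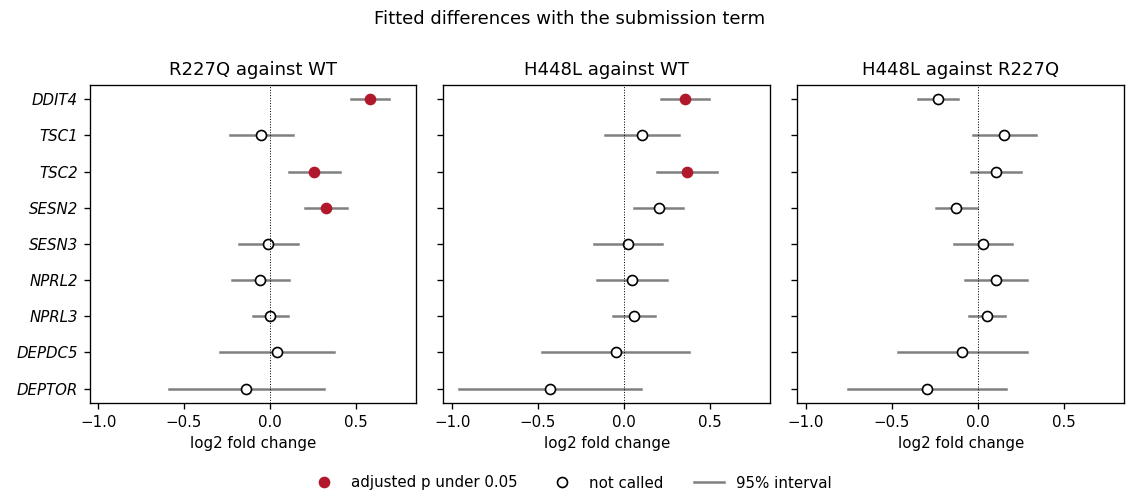
Fitted log2 fold changes of the 9 genes (points) with 95% intervals (lines) for R227Q against WT, H448L against WT and H448L against R227Q, from the model with the submission term. Filled points passed an adjusted p under 0.05: DDIT4, SESN2 and TSC2 in the first panel, DDIT4 and TSC2 in the second and none in the third.

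H448L and R227Q were compared directly to ask whether the variants differ. Fitted levels in H448L stood 1.17-fold below R227Q for DDIT4, 1.09-fold below it for SESN2 and 1.08-fold above it for TSC2. None of the 9 genes passed the edgeR test, in which 0.207% of all tested genes did (0.0828% higher and 0.124% lower). That share rests on 35 genes, a count that became 14 without WT 1, 21 without WT 3, 22 without R227Q 1, 4 without R227Q 3, 91 without H448L 1, 11 without H448L 2 and 12 without H448L 3. Of the 9 genes limma-voom also called 0, and DESeq2 gave an adjusted p to none of the 9. At an unadjusted p under 0.05, which 10.9% of all tested genes met, edgeR gave 2, DDIT4 and SESN2. For DDIT4 the log2 difference was −0.23 ± 0.06 (95% interval −0.35 to −0.11, edgeR adjusted p = 0.0851), and −0.22 inside 4LJFHN. Without the filter on low counts DDIT4 passed (−0.24, edgeR adjusted p = 0.0237). Each H448L library (52.9 to 56.9 CPM) lay below each R227Q library (61.4 to 89.3 CPM). For SESN2 it was −0.13 ± 0.06 (−0.24 to −0.01, edgeR adjusted p = 0.427), and for TSC2 0.11 ± 0.07 (−0.04 to 0.25, 0.644). The other 6 genes lay between −0.29 (DEPTOR) and 0.15 (TSC1), with edgeR adjusted p from 0.568 to 0.943. The SESN2 call in R227Q and its absence in H448L therefore do not show that the variants differ for this gene.

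The R227Q difference could be taken in both submissions, and a test of whether it differed between them called none of the 9 genes, as it called 0 of 16908 genes (0% by edgeR at an adjusted p under 0.05). At an unadjusted p under 0.05 edgeR gave 0 of the 9 genes and 4.35% of all tested genes, and DESeq2 also called 0 of the 9. For DDIT4, SESN2 and TSC2 the submission-specific differences pointed the same way. For the other 6 genes they had opposite signs without passing the test. The values in SDKYMR and 4LJFHN were −0.11 and 0.09 for SESN3, −0.17 and 0.09 for NPRL2, −0.15 and 0.34 for DEPDC5, −0.42 and 0.09 for DEPTOR, 0.03 and −0.13 for TSC1, and 0.03 and −0.02 for NPRL3. SDKYMR held 1 R227Q library, so these values are imprecise.

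**Figure D3:**
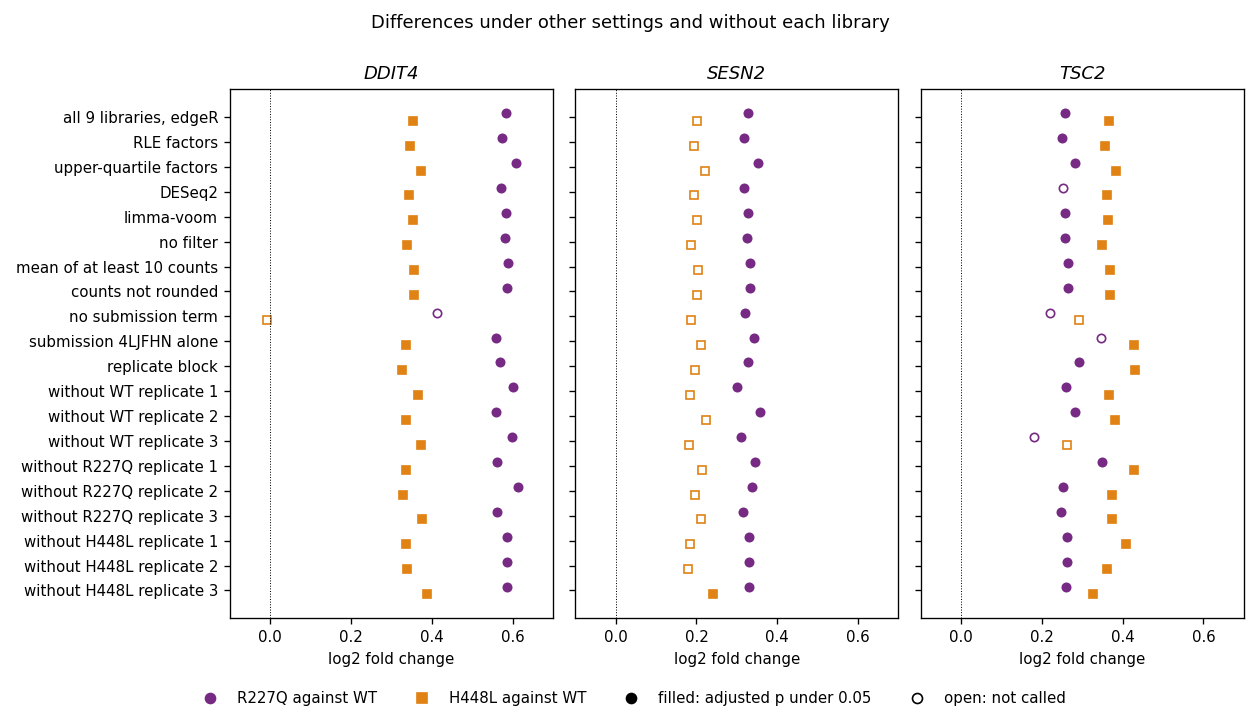
Log2 fold changes of DDIT4, SESN2 and TSC2 for R227Q (circles) and H448L (squares) against WT under each setting and without each library; filled symbols passed an adjusted p under 0.05. DDIT4 in H448L moves to −0.01 without the submission term, and both TSC2 values become open without WT 3.

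The rest of the pathway was followed through 76 further genes in 8 lists, also chosen with earlier results of these data known. In R227Q 6 of them were higher and 10 lower than in WT, with a median log2 fold change of −0.05, against 7.5% higher and 9.91% lower among all tested genes. In H448L 5 were higher and 3 lower, with a median of −0.04, against 2.97% and 4.99%. The R227Q total of 16 became 8 without WT 3 and 8 without R227Q 1, and the H448L total of 8 became 4 without either of these libraries. Between H448L and R227Q edgeR called 0 of the 76, and 13 had an unadjusted p under 0.05. There limma-voom also called 0, and DESeq2 called 0 of the 5 to which it gave an adjusted p.

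The counts given below for each list stand beside shares of all tested genes of 7.5% higher and 9.91% lower in R227Q. In H448L those shares were 2.97% higher and 4.99% lower. SEC13, a GATOR2 subunit that also serves the nuclear pore and secretory vesicles, fell in both variants, as the 1 called gene of 5 in GATOR2. It stood at 294.2, 282.3 and 282.5 CPM in R227Q 1 to 3, 272.5, 257.3 and 250.2 CPM in H448L 1 to 3, and 343.8, 350.1 and 336.6 CPM in WT 1 to 3, so that neither variant overlapped WT. Its log2 fold change was −0.26 ± 0.04 in R227Q and −0.39 ± 0.05 in H448L (edgeR adjusted p = 3.35e-05 and 2.49e-06). Without the submission term the R227Q value did not pass (−0.29, edgeR adjusted p = 0.0612). Of 7 genes for the mTOR complexes and Rheb, 1 rose and 2 fell in R227Q and 1 fell in H448L. MAPKAP1, the mTORC2 subunit SIN1, fell in R227Q (−0.36 ± 0.06, edgeR adjusted p = 2.77e-05) and did not pass in H448L (−0.18 ± 0.07, 0.0870). It stood at 42.9, 42.4 and 43.6 CPM in R227Q 1 to 3, 48.9, 47.3 and 51.6 CPM in H448L 1 to 3, and 55.1, 54.5 and 54.9 CPM in WT 1 to 3.

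RHEB, the GTPase that TSC2 turns off, fell in H448L (−0.27 ± 0.06, edgeR adjusted p = 0.00670), no longer called on omission of R227Q 1 (−0.22). In R227Q it stood at −0.16 ± 0.05 (edgeR adjusted p = 0.0352), no longer called on omission of WT 1 (−0.15), WT 2 (−0.14), R227Q 1 (−0.07) or R227Q 3 (−0.16). RICTOR, the scaffold of mTORC2, was called higher in R227Q (0.29 ± 0.10, edgeR adjusted p = 0.0465). Omitting any single library of WT or R227Q ended that call (WT 1 0.32, WT 2 0.30, WT 3 0.19, R227Q 1 0.43, R227Q 2 0.28 and R227Q 3 0.29). Among 13 genes for the Rag GTPases, Ragulator and folliculin, 2 fell in R227Q and 1 in H448L. LAMTOR2, a Ragulator subunit, stood at −0.18 ± 0.05 in R227Q and −0.25 ± 0.06 in H448L (edgeR adjusted p = 0.00851 and 0.00488), and omitting R227Q 1 ended both calls (−0.10 and −0.20). LAMTOR4, another subunit, stood at −0.21 ± 0.06 in R227Q (edgeR adjusted p = 0.00835), a call that ended without WT 3 (−0.24) or R227Q 1 (−0.18).

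Other negative regulators and amino acid sensors gave 1 lower gene of 12 in R227Q and 1 higher in H448L. CASTOR2, a paralog of the arginine sensor CASTOR1, was lower in R227Q (−0.34 ± 0.08, edgeR adjusted p = 0.00490), no longer called on omission of WT 3 (−0.22). KPTN, a subunit of KICSTOR, which tethers GATOR1 to the lysosome, was higher in H448L (0.39 ± 0.12, edgeR adjusted p = 0.0454). That call ended on omission of WT 1 (0.38), WT 3 (0.34), R227Q 1 (0.43), R227Q 3 (0.34), H448L 1 (0.40), H448L 2 (0.40) or H448L 3 (0.38). Among 7 genes for AMPK and its upstream kinase, PRKAB2, a regulatory subunit, was higher in R227Q (0.27 ± 0.09) and H448L (0.35 ± 0.11), with edgeR adjusted p = 0.0331 and 0.0352. The R227Q call ended on omission of WT 2 (0.24), WT 3 (0.30), R227Q 1 (0.24) or R227Q 3 (0.24). The H448L call ended on omission of WT 2 (0.33), WT 3 (0.39), R227Q 1 (0.33), R227Q 2 (0.32), H448L 1 (0.36) or H448L 2 (0.34).

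Among 11 direct substrates of mTORC1, 3 were lower in R227Q and 0 passed in H448L by edgeR, where 1 had an unadjusted p under 0.05. MAF1, a repressor of RNA polymerase III, stood at −0.18 ± 0.04 in R227Q (edgeR adjusted p = 0.00469), a call that ended without WT 3 (−0.12). TFE3, a lysosomal transcription factor, stood at −0.27 ± 0.07 in R227Q (edgeR adjusted p = 0.00848), and its call ended without WT 3 (−0.25) or R227Q 1 (−0.32). RPS6KB2, an S6 kinase, stood at −0.20 ± 0.07 (edgeR adjusted p = 0.0377), which ended on omission of WT 1 (−0.20), WT 3 (−0.12), R227Q 1 (−0.27) or R227Q 2 (−0.16).

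**Figure D4:**
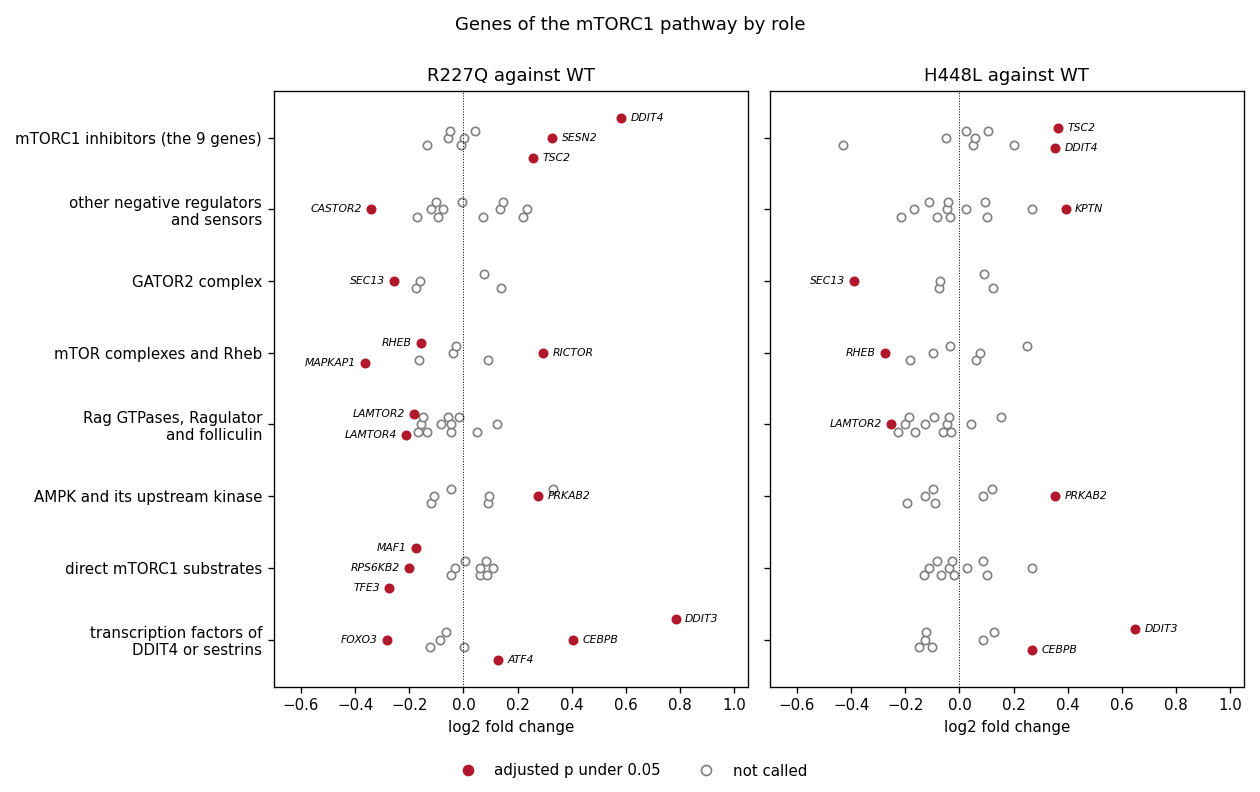
Log2 fold changes of the 9 mTORC1 inhibitor genes and of the genes in 7 of the 8 pathway lists by role, for R227Q and H448L against WT; filled points passed an adjusted p under 0.05 and are named. The called genes of the 9 lie above 0. In the list of other negative regulators and sensors, CASTOR2 lies below 0 in R227Q and KPTN above 0 in H448L. SEC13, the 1 called gene of GATOR2, lies below 0 in both panels. So do the called genes of the Rag and Ragulator list, which in H448L is LAMTOR2 alone.

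Transcription factors known to induce DDIT4 or the sestrins gave 3 higher and 1 lower of 8 in R227Q and 2 higher in H448L, with median log2 fold changes of −0.03 and −0.01. DDIT3, the stress factor CHOP, stood at 54.7, 36.7 and 34.0 CPM in R227Q 1 to 3, 30.4, 33.2 and 33 CPM in H448L 1 to 3, and 32.3, 31.9 and 19.7 CPM in WT 1 to 3. Its log2 fold change was 0.78 ± 0.06 in R227Q and 0.65 ± 0.08 in H448L (edgeR adjusted p = 8.37e-10 and 4.2e-06). Omitting any single library ended neither call, but both were lost without the submission term (0.55 in R227Q and 0.14 in H448L, edgeR adjusted p = 0.241 and 0.706). Inside 4LJFHN both variants lay above WT 3. CEBPB, a partner of ATF4 on composite elements, stood at 88.1, 108.8 and 108.1 CPM in R227Q 1 to 3, 104.8, 97.8 and 94.9 CPM in H448L 1 to 3, and 68.8, 63.2 and 81.3 CPM in WT 1 to 3. Both variants lay above every WT library. Its log2 fold change was 0.41 ± 0.05 in R227Q and 0.27 ± 0.06 in H448L (edgeR adjusted p = 1.7e-06 and 0.00493). The H448L call was lost without WT 3 (0.27) or without the submission term (0.43, edgeR adjusted p = 0.0725). It was also lost when the replicate number was added to the model as a block. ATF4 mRNA stood at 0.13 ± 0.04 in R227Q (edgeR adjusted p = 0.0274), no longer called on omission of WT 1 (0.10), WT 3 (0.14), R227Q 1 (0.12) or R227Q 2 (0.12), and at 0.13 ± 0.05 in H448L (0.106). FOXO3, a FOXO factor that can induce SESN3, was lower in R227Q (−0.28 ± 0.06, edgeR adjusted p = 0.000932), no longer called on omission of WT 3 (−0.25).

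The genes whose log2 CPM most resembled each called gene over the 9 libraries, after removal of the submission term, are given as a description. The groups were kept in that removal, so differences between group means enter the likeness. For DDIT4 they were RPL5, IL10RB and NMB (Pearson r = 0.991, 0.987 and 0.986), for SESN2 ANGEL1, ABRAXAS2 and MEIS3 (0.985, 0.983 and 0.983), and for TSC2 TRIM33, NOVA1 and CCDC18-AS1 (0.982, 0.979 and 0.97), out of 11130 named genes averaging 5 CPM or more. The libraries are bulk samples, so a change in how many cells express a gene and a change in RNA per cell cannot be told apart.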

How the data were processed

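Poly-A RNA of 9 Hap1 libraries was sequenced. Per the labels' protocols, a commercial service did the extraction, poly-A capture, tagmentation and library amplification. GRCh38 is the build named in the labels, per the submitters' processing notes. Aligner, counting program, annotation and strand use: not given in the sources used here. The authors deposited estimated counts per gene, not normalized, and CPM (counts per 1000000 of the library total), per the file headers. Per library 89.1% to 90.1% of deposited count values were exactly whole, zeros included, and 70.4% to 72.5% of those above 0; the others were rounded to whole numbers.

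The members and lists were chosen with earlier results of these data known. After leaving out 92 spike-in rows, genes were kept with filterByExpr and scaled by TMM factors (0.969 to 1.02). The model held group and submission, fitted to the 9 libraries (5 residual degrees of freedom) and tested with edgeR 4.0.16 (R 4.3.3), adjusting over all 16908 genes at 0.05. Standard errors are the log2 fold change over the root of F; intervals use the t distribution at 95%. Submission-specific differences compare means of log2 CPM (prior count 2). The named genes were the 9, SESN1, ATF4, DDIT3, and the 3 genes of smallest p per list and comparison, of which those called are printed, with the 3 most alike genes for each called member. One pathway result is not reported here, though its gene is in the counts over the 76 genes. Gene positions are from GENCODE 29 on GRCh38. Alternatives used limma 3.58.1, DESeq2 1.42.0 and other settings. Scripts were tested on simulated data.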

Additional observations from a re-analysis of the deposited data

How the results depend on the processing

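Without the submission term, edgeR called 1 of the 9 genes in R227Q (SESN2) and 0 in H448L, where 2 had an unadjusted p under 0.05; DDIT4 in H448L turned to −0.0084 and ATF4 in R227Q to −0.043. The pathway genes called then numbered 2 in R227Q and 2 in H448L; with 4LJFHN alone they were 7 and 4, and with DESeq2 10 in R227Q. Leaving out each library gave 2 to 3 of the 9 genes in R227Q, 1 to 3 in H448L and 0 in H448L against R227Q, and 8 to 19, 4 to 8 and 0 to 1 pathway genes. Without a filter on low counts DDIT4 passed in H448L against R227Q, giving 1 gene. With the replicate block 3, 2 and 0 of the 9 genes were called, as without it. Same-numbered libraries deviated with correlations of −0.564 to 0.660, and not every library correlated best with its own number. These correlations still held the difference between submissions. With that difference removed they ran from −0.398 to 0.123. The removal shapes those values: WT 3 and R227Q 1, each alone of its group in a submission, then correlated at 1. Neither set can therefore decide whether same-numbered libraries were paired. Under the scaling alternatives (RLE and upper-quartile factors) the counts for the 9 genes stayed at 3, 2 and 0. In H448L 23.1% of all calls were higher with DESeq2, against 37.3% with edgeR. Calls over all genes in R227Q, H448L and H448L against R227Q numbered 2944, 1347 and 35, against 1557, 694 and 54 with DESeq2, 312, 147 and 1 without the submission term, and 1093, 253 and 21 without WT 3; without R227Q 1 they numbered 1278, 771 and 22; H448L against R227Q gave 122 without a filter. Signs changed in 40 of 416 values of the 9 genes that passed in neither fit. The causes were not tested, except that fewer libraries leave fewer degrees of freedom. Low counts limit DEPTOR and DEPDC5.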
